A study of Mus musculus with 5 samples.

Results

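The genes of the phagocyte NADPH oxidase and of the enzymes that dispose of its product were compared between macrophages from myeloma-bearing Matrigel plugs of 2 kinds. They were chosen by gene symbol in the array's annotation: the oxidase subunits Cybb, Cyba, Ncf1, Ncf4 and Rac2, and the antioxidant enzymes Sod1, Sod2, Cat and Gpx1. All 9 genes were found, on 22 of 45037 probe sets, a probe set being the group of array probes read as 1 value. The oxidase subunits had 10 probe sets and the antioxidant enzymes 12. None of the 22 carried more than 1 gene symbol. One Sod1 probe set (1447761_x_at) was below the lowest usable signal on all 5 arrays and was not tested, which left 21.

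Tumoricidal macrophages (3 arrays) were CD11b+ cells sorted by FACSAria from subcutaneous Matrigel plugs, a gelled matrix, that held MOPC315 cells, a mouse myeloma line. Control macrophages (2 arrays), called non-tumoricidal in the labels, were CD11b+ cells sorted in the same way from plugs that held antigen-loss MOPC315. Both sets of hosts were adult Balb/c SCID mice of 7 to 12 weeks with a transgenic T-cell receptor specific for the idiotype of MOPC315, and plugs were taken on day 8. SCID mice lack most lymphocytes of their own but keep natural killer cells and myeloid cells, and whether an array held cells of 1 animal or of a pool is not given in the sources used here. The labels call the arrays biological replicates, and their number limits the precision of every value below.

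Phagocytes make superoxide with a membrane-bound enzyme whose catalytic core is gp91phox (Cybb) held by p22phox (Cyba). On activation cytosolic subunits join it, among them the organiser p47phox (Ncf1), p40phox (Ncf4) and the GTPase Rac2, and electrons pass from NADPH to oxygen. Superoxide dismutases turn superoxide into hydrogen peroxide, Sod1 mainly in the cytosol and Sod2 in mitochondria, and catalase (Cat) and glutathione peroxidase 1 (Gpx1) remove the peroxide. In macrophages Cybb and Ncf1 are known targets of interferon-gamma, and Sod2 is a known target of inflammatory cytokines acting through NF-kappa-B.

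Among the 9 genes, Sod2 and Cybb had the largest log2 differences between tumoricidal and control macrophages, 1.31 and 0.92, and Cyba followed with 0.76. Ncf1 (0.58), Gpx1 (0.38), Ncf4 (0.28) and Rac2 (0.24) had smaller differences, and Cat (0.01) and Sod1 (-0.097) lay near 0. None of the 21 probe sets passed limma's test at a Benjamini-Hochberg adjusted p under 0.05 over all 41053 tested probe sets, where 0.0512% passed, 0.0341% as higher and 0.0171% as lower. At an unadjusted p under 0.05, 6 of the 21 were higher (3 of Cybb, 3 of Sod2) and 0 lower, beside 4.92% higher and 3.07% lower (7.99% in either direction) in the whole table, and 6.76% higher and 1.81% lower among probe sets above the median level, where 19 of the 21 lie. The signals of the groups did not overlap on 8 of the 21 (3 of Cybb, 1 of Cyba, 4 of Sod2), all higher in tumoricidal macrophages, beside 13.3% of all tested probe sets and 20.4% of those above the median level. The opposite order, every tumoricidal array below both controls, was found on 0 of the 21, beside 7.60% and 6.37%.

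The signs of the small differences depended on how the arrays were scaled. Signals had been brought to a common trimmed mean before deposit, and here each array was scaled further to a common median, which raised every log2 difference of these genes by 0.23 over the deposited scaling. The array medians rest on dim probe sets and differed by up to 1.47 times, while the 90th percentiles of the deposited signals differed only between 321 and 331. The median log2 difference of all tested probe sets was 0.086 with median scaling (41053 tested), -0.11 with deposited scaling (41035) and 0.0012 with quantile normalization (41053). Cybb, Cyba, Ncf1, Sod2 and Gpx1 kept positive differences under all 3, Ncf4 and Rac2 turned negative with quantile normalization, and Cat turned negative with both others; the brightest Sod1 probe set was negative under all 3. In the deposited signals 7 of the 21 probe sets were apart and higher, beside 8.72% of all, and 3 were apart and lower (2 of Sod1 and the dim one of Rac2), beside 16.2% of all. Over the whole table, the probe sets at an unadjusted p under 0.05 divided into 2021 higher and 1259 lower with median scaling, 1172 and 2500 with deposited scaling, and 1731 and 1693 with quantile normalization.

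**Figure D1:**
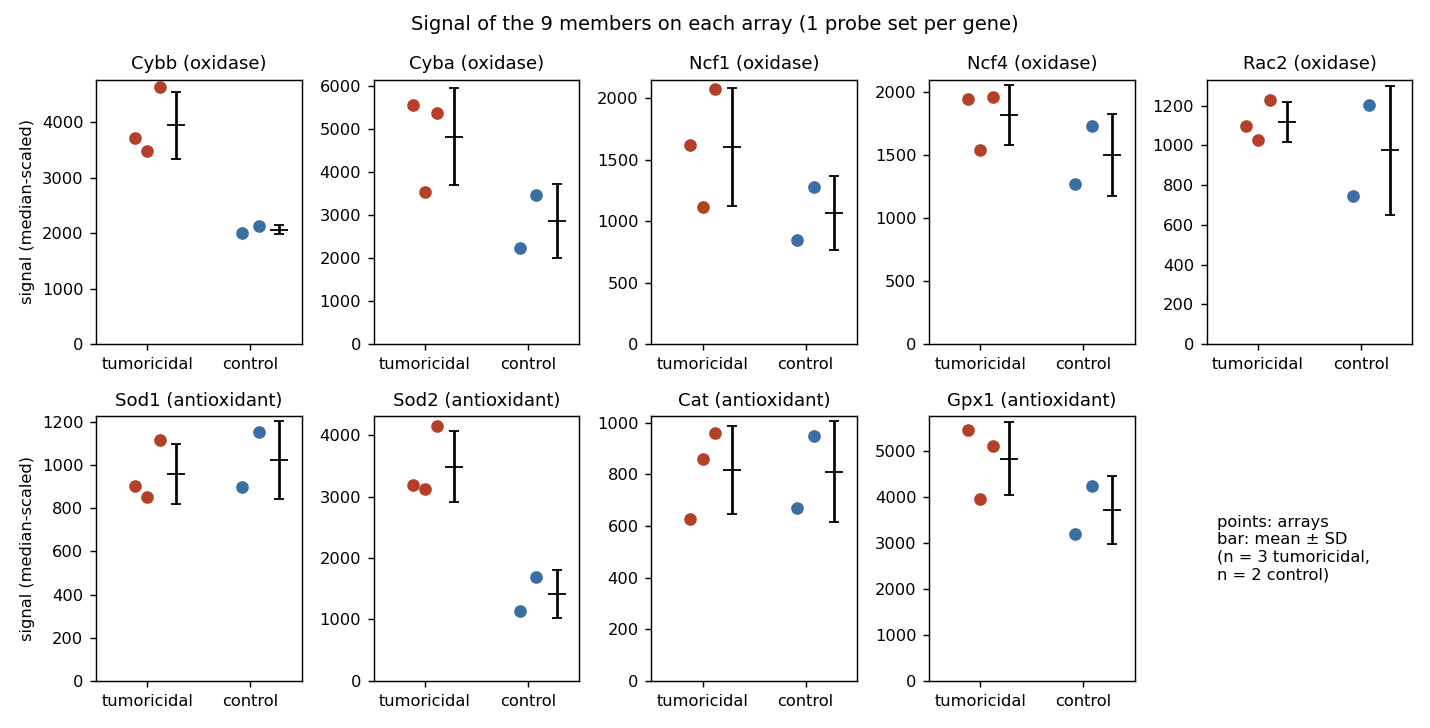
Median-scaled signal of 1 probe set for each of the 9 genes on the 3 tumoricidal arrays (left) and the 2 control arrays (right), with the mean and SD of each group, on axes that start at 0. Tumoricidal and control arrays do not overlap for Cybb, Cyba and Sod2; Cyba in tumoricidal replicate 2 (3530) lies just above control replicate 2 (3469.4).

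Promoter sequences were read for 7 of the 9 genes (not Ncf4 and Rac2) from RefSeq, build GRCm38.p6, as the 250 bases before the annotated start, and 4 are shown. Cybb and Sod2 are the genes with the largest differences, Ncf1 is the other subunit with an interferon-type motif, and Sod1 is the dismutase with a difference near 0. Each is written 5' to 3' on the gene's own strand, and capitals mark matches to GAS (TTCNNNGAA, the interferon-gamma activated site), to the ISRE core (GAAA, 2 bases of any kind, then GAAA) and to the kappa-B consensus, all on either strand:
Cybb (chrX:9469325-9469574, minus strand): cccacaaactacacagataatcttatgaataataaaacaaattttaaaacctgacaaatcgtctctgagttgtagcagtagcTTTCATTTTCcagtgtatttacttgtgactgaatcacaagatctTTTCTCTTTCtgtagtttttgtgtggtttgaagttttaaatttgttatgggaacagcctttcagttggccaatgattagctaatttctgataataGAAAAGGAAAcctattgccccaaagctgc
Ncf1 (chr5:134229626-134229875, minus strand): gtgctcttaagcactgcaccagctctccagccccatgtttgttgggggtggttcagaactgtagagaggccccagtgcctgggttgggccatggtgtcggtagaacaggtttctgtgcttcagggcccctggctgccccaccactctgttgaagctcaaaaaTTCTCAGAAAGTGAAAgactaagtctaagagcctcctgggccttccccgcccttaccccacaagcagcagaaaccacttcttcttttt
Sod2 (chr17:13007589-13007838, plus strand): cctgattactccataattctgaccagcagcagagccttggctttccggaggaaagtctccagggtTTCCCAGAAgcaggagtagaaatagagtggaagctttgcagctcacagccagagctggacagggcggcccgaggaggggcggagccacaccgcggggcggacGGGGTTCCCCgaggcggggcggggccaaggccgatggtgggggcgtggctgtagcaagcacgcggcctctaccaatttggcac
Sod1 (chr16:90220512-90220761, plus strand): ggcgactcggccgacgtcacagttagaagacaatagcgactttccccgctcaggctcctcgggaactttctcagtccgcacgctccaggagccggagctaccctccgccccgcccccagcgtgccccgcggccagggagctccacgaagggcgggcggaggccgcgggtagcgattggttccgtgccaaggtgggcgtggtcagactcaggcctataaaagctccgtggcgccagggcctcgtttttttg
The Cybb sequence held 3 ISRE core matches. The Ncf1 sequence held a GAS match that overlaps 1 ISRE core match by 3 bases. In Sod2 there were 1 GAS and 1 kappa-B match, and the kappa-B match reads on both strands. Sod1, Cyba, Cat and Gpx1 had none of the 3 motifs in this window.

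Over 32851 RefSeq promoter windows of this length, counting either strand, 2.98% held the ISRE core, 7.02% GAS and 3.90% the kappa-B consensus. The PU.1 core (GAGGAAGT), which marks myeloid promoters, was in 0 of the 7 and in 2.44% of all. The SP1 box (GGGCGG) was in 5 of the 7 and in 32.7% of all. TGANNNNGC, a loose form of the antioxidant response element that NRF2 binds, was in 1 of the 7 (Sod1) and in 35.2%. The Cybb window had a GC content of 34.0% and 1 CpG, and the Sod1 window 66.4% and 26 CpGs, against medians of 52.4% and 6 over all windows. A match is a description of letters, not of binding, and no match says only that these letters are absent from these 250 bases.

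Cybb, the electron-carrying subunit, was read by 3 probe sets. The brightest (1436778_at) had scaled signals of 3714, 3483 and 4632 in tumoricidal replicates 1 to 3, against 2002 and 2124 in control replicates 1 and 2. Every tumoricidal array was above both control arrays, and the 2 control arrays lay close together. The log2 difference was 0.92 (SE 0.25, 95% interval 0.30 to 1.54, 1.90-fold), with an unadjusted p of 0.0111 and a limma adjusted p of 0.411 over all probe sets. The second (1422978_at) had 1328, 742 and 1976 in tumoricidal arrays, against 380 and 620 in control arrays. The third (1436779_at) had 875, 644 and 1107 in tumoricidal arrays, against 302 and 438 in control arrays. Both also kept the groups apart, with log2 differences of 1.36 (SE 0.48) and 1.23 (SE 0.34). On all 3 probe sets tumoricidal replicate 2 was the lowest of its group.

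Cyba, the partner that stabilises gp91phox in the membrane, had 1 probe set, with 5558, 3530 and 5377 in tumoricidal replicates 1 to 3, against 2244 and 3469.4 in control replicates 1 and 2. The groups were apart by a narrow margin, since tumoricidal replicate 2 stood near control replicate 2. The log2 difference was 0.76 (SE 0.34, 95% interval -0.085 to 1.60), and limma gave an adjusted p of 0.692.

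Ncf1, the organiser that carries phosphorylation sites for activation, had 1620, 1117 and 2073 in tumoricidal replicates 1 to 3 on its brightest probe set (1456772_at), against 850 and 1275 in control replicates 1 and 2. Tumoricidal replicates 1 and 3 were above both control arrays, and replicate 2 was below control replicate 2. The other 2 Ncf1 probe sets had the same order, with 929, 532 and 1193 in tumoricidal arrays, against 390 and 747 in control arrays, on 1451767_at. Their log2 differences were 0.64 (SE 0.47) and 0.41 (SE 0.48), beside 0.58 (SE 0.36) for the brightest, with limma adjusted p-values between 0.794 and 0.857. Without control replicate 1 these 3 differences were 0.17, 0.019 and 0.28, and without control replicate 2 they were 1.11, 0.80 and 0.87.

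The remaining oxidase subunits differed less. Ncf4, which binds a phosphoinositide on the phagosome, had 1944, 1541 and 1961 in tumoricidal replicates 1 to 3, against 1273 and 1733 in control replicates 1 and 2, a log2 difference of 0.28 (SE 0.27, 95% interval -0.39 to 0.96). The groups overlapped through tumoricidal replicate 2. Rac2, the GTPase of haematopoietic cells that switches the complex on, had 1100, 1029 and 1229 in tumoricidal arrays, against 746 and 1203 in control arrays, a log2 difference of 0.24 (SE 0.30, 95% interval -0.50 to 0.97). Here the 2 control arrays spanned nearly the whole range. After median scaling control replicate 1 was the lowest of the 5 arrays for Cybb, Cyba, Ncf1, Ncf4, Rac2, Sod2 and Gpx1. Without it their log2 differences were 0.88, 0.45, 0.28, 0.058, -0.11, 1.03 and 0.18. With deposited scaling the differences of Ncf4 and Rac2 were 0.052 and 0.0077, and with quantile normalization -0.090 and -0.096. A second, dim Rac2 probe set (1440208_at) had 10.7, 14.7 and 12.9 in tumoricidal arrays, against 13.1 and 22.1 in control arrays, and pointed the other way (-0.43, SE 0.32). Its groups overlapped after median scaling, while in the deposited signals every tumoricidal array was below both control arrays.

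Sod2, the manganese dismutase of mitochondria, had 4 probe sets, all with positive differences. The brightest (1448610_a_at) had 3197, 3116 and 4149 in tumoricidal replicates 1 to 3, against 1146 and 1699 in control replicates 1 and 2. The lowest tumoricidal array was well above the higher control array. The log2 difference was 1.31 (SE 0.30, 95% interval 0.58 to 2.04, 2.48-fold), with an unadjusted p of 0.00498, a limma adjusted p of 0.319 and rank 639 by absolute moderated t among all tested probe sets. On 1417193_at the signals were 2214, 1783 and 3196 in tumoricidal arrays, against 603 and 1161 in control arrays, a log2 difference of 1.48 (SE 0.41). On 1454976_at they were 199, 266 and 348 in tumoricidal arrays, against 103 and 182 in control arrays, a log2 difference of 0.95 (SE 0.38), which was 0.54 without control replicate 1. The dim probe set 1417194_at had a smaller difference of 0.54 (SE 0.24), and its groups overlapped in the deposited signals.

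Sod1, the copper and zinc dismutase, had 903, 854 and 1114 in tumoricidal replicates 1 to 3 on its brightest probe set (1459976_s_at), against 896 and 1152 in control replicates 1 and 2. The groups overlapped, and the log2 difference was -0.097 (SE 0.26, 95% interval -0.75 to 0.56), and limma gave an adjusted p of 0.933. The other 3 tested Sod1 probe sets lay between -0.24 and 0.097. In the deposited signals the brightest had 888, 887 and 953 in tumoricidal arrays, against 1125 and 1152 in control arrays, and 2 of the 4 tested Sod1 probe sets, this one included, had every tumoricidal array below both control arrays. That pattern was found on 16.2% of all probe sets in the deposited signals and is absent for Sod1 after median scaling.

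Catalase had 629, 860 and 962 in tumoricidal replicates 1 to 3 on its brighter probe set, against 672 and 948 in control replicates 1 and 2, a log2 difference of 0.011 (SE 0.31, 95% interval -0.76 to 0.78). The ranges of both groups nearly coincided, and the second Cat probe set differed by 0.18 (SE 0.30). Gpx1, a selenoenzyme that reduces peroxide with glutathione, had 5449, 3952 and 5100 in tumoricidal arrays, against 3199 and 4232 in control arrays, a log2 difference of 0.38 (SE 0.28, 95% interval -0.31 to 1.07). The groups overlapped, and quantile normalization left a difference of 0.048.

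**Figure D2:**
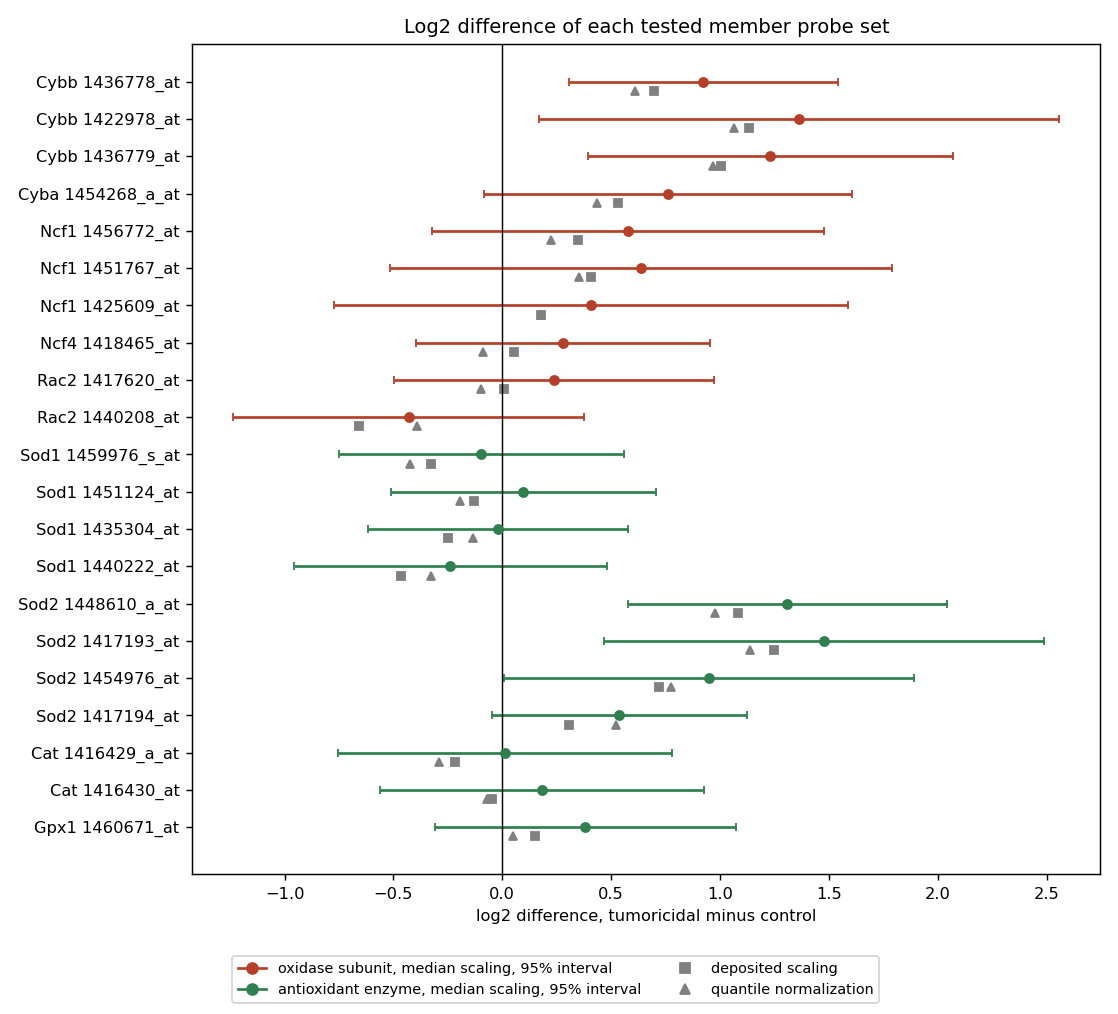
Log2 difference (tumoricidal minus control) of the 21 tested probe sets with median scaling and its 95% interval from limma (circles and bars), beside the value with deposited scaling (squares) and with quantile normalization (triangles). The intervals of the 3 Cybb probe sets and of 3 of the 4 Sod2 probe sets lie above 0, before any adjustment for the number of probe sets.

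The oxidase subunits and the antioxidant enzymes were then set side by side. The 5 subunits had a median log2 difference of 0.58 and the 4 enzymes 0.20, against 0.13 over all 17074 named genes and 0.19 over the 9931 named genes above the median level. With deposited scaling these 4 medians were 0.35, -0.033, -0.067 and -0.043, and with quantile normalization 0.23, -0.12, 0.016 and 0.0069. The median of the subunits was 0.28 without control replicate 1 and 0.87 without control replicate 2, and that of the enzymes -0.030 and 0.42. Among the enzymes Sod2 differed by 1.31 and the other 3 by -0.097 to 0.38.

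Ratios between genes on the same array are free of any factor that multiplies the whole array, as in median and deposited scaling. Quantile normalization is no such factor and can change them. The ratios are given here as log2 values minus the control mean. The mean of the 5 subunits over the mean of all 4 enzymes was 0.30, -0.0059 and 0.17 in tumoricidal replicates 1 to 3, against -0.014 and 0.014 in control replicates 1 and 2, so the groups overlapped. Over Sod1, Cat and Gpx1 alone, a split made after their values were seen, it was 0.60, 0.29 and 0.49 in tumoricidal arrays, against -0.033 and 0.033 in control arrays. All 3 tumoricidal arrays were then above both control arrays.

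The ratio of the mitochondrial to the cytosolic dismutase varied little among tumoricidal arrays. Sod2 over Sod1 was 1.37, 1.41 and 1.44 in tumoricidal replicates 1 to 3, against -0.10 and 0.10 in control replicates 1 and 2, a mean of 1.41 ± 0.037 (SD, n = 3) in tumoricidal arrays. Sod2 over the mean of the peroxide-removing enzymes Cat and Gpx1 was 1.08, 1.05 and 1.20 in tumoricidal arrays, against -0.059 and 0.059 in control arrays. Both ratios set the enzyme with the largest difference over enzymes with smaller ones, chosen with those values known. So they describe the same differences free of a factor common to the array and are no further test. Within the oxidase, Cybb over the mean of Ncf4 and Rac2 was 0.55, 0.67 and 0.78 in tumoricidal arrays, against 0.24 and -0.24 in control arrays. It likewise sets the subunit with the largest difference over those with the smallest, so it is no further test. Cybb over its membrane partner Cyba was -0.15, 0.42 and 0.22 in tumoricidal arrays, against 0.27 and -0.27 in control arrays, which overlapped.

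**Figure D3:**
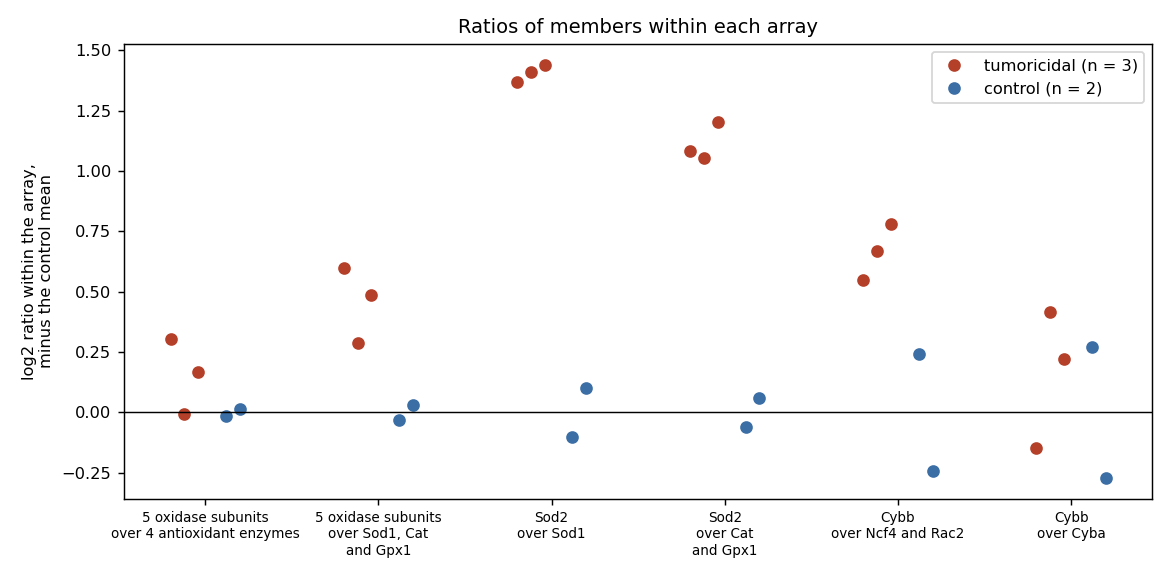
Log2 ratios between genes within each array, minus the mean of the 2 control arrays, for tumoricidal (red, left of each pair) and control arrays (blue). Sod2 over Sod1 lies between 1.37 and 1.44 in tumoricidal arrays, while the ratio of all 5 subunits to all 4 enzymes overlaps between the groups.

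Among the partners and regulators of the oxidase, all 9 measured genes of 10 listed had positive differences on their brightest probe set. With deposited scaling 6 were positive, and with quantile normalization 5. The other probe sets did not all share the sign. Of the tested probe sets 1 of 2 was positive for Cybc1, Pik3cg and Vav1, 1 of 3 for Prkcb and Dock2, and 2 of 3 for Rac1. All were positive for Rap1a, Prkcd and Hvcn1. Of all 17074 named genes 10755 were positive with median scaling (7025 of the 9931 above the median level), 7388 with deposited scaling and 8824 with quantile normalization. Of the 9 partners 0 passed limma's adjusted p over all probe sets (2 were higher at an unadjusted p under 0.05). At that unadjusted threshold 1045 of all 17074 named genes were higher and 477 lower. Of the 9931 above the median level 788 were higher and 141 lower. The median was 0.29. Hvcn1, the proton channel that offsets the charge moved by the oxidase, had 194, 185 and 327 in tumoricidal replicates 1 to 3, against 73.1 and 69.8 in control replicates 1 and 2. The groups were far apart, with a log2 difference of 1.67 (SE 0.33) and a limma adjusted p of 0.257. Prkcd, a kinase that phosphorylates p47phox, had 1663, 1132 and 1499 in tumoricidal arrays, against 590 and 745 in control arrays, a log2 difference of 1.09 (SE 0.28) and a limma adjusted p of 0.394. Of 7 listed genes for non-phagocyte oxidases only Nox4, Noxo1 and Duox1 were measured, and all 3 had mean signals below the median in both groups. Their differences on the log2 scale were negative, with a median of -0.047, but that of Nox4 was 0.010 with quantile normalization and its mean signal was 6.80 in tumoricidal arrays, against 5.46 in control arrays. None passed; Noxo1 was lower at an unadjusted p under 0.05, with all 3 tumoricidal arrays at the floor.

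Other antioxidant genes gave a mixed picture. Of 16 peroxidases, peroxiredoxins and thioredoxins 13 were measured, 10 with positive and 3 with negative differences (8 positive under deposited scaling and under quantile normalization). Of these 0 passed. At limma's unadjusted p under 0.05, 2 were higher and 1 lower, beside 1045 and 477 of all 17074 named genes. Glutaredoxin (Glrx), which reduces protein-glutathione bonds, had 1707, 1287 and 1882 in tumoricidal replicates 1 to 3, against 664 and 902 in control replicates 1 and 2, 1.05 apart on the log2 scale (SE 0.29). Thioredoxin (Txn1), the cytosolic disulphide reductant, had 6282, 5515 and 7228 in tumoricidal arrays, against 2608 and 3735 in control arrays, a log2 difference of 1.01 (SE 0.28). For both genes the groups did not overlap.

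Genes of glutathione synthesis and of the NRF2 response, 9 of 9 measured, had 4 positive and 5 negative differences and a median of -0.082. Of these 0 passed, and 1 was higher at limma's unadjusted p under 0.05, beside 1045 of all 17074 named genes. Slc7a11, the cystine importer, had 83.5, 82.2 and 167 in tumoricidal replicates 1 to 3, against 39.7 and 46.3 in control replicates 1 and 2, a log2 difference of 1.29 (SE 0.39) and a limma adjusted p of 0.480. Hmox1, which degrades heme, had 1751, 996 and 2668 in tumoricidal arrays, against 2285 and 3797 in control arrays, a log2 difference of -0.82 (SE 0.49) with overlapping groups and a limma adjusted p of 0.788. Of 7 genes that supply NADPH 6 were measured, with 3 positive and 3 negative differences, a median of 0.071 and 0 past either threshold. The pentose phosphate enzymes Taldo1 (0.57, SE 0.31) and Pgd (0.38, SE 0.23) had the largest.

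**Figure D4:**
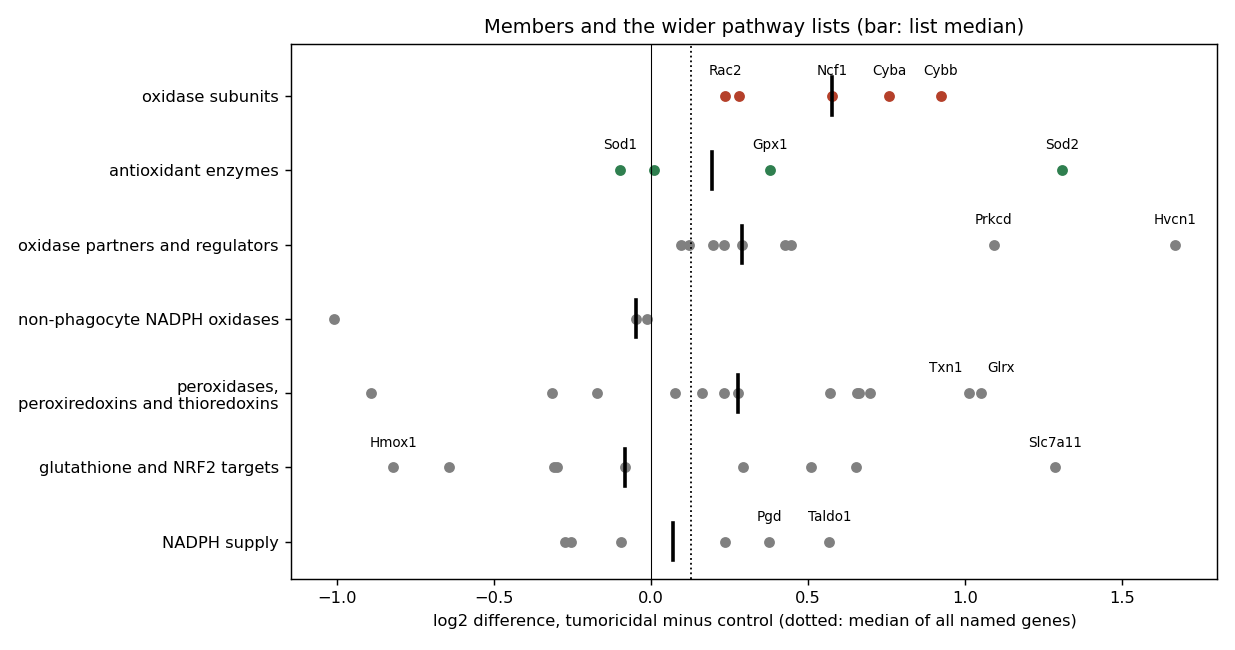
Log2 difference (tumoricidal minus control, median scaling) of each measured gene in the 2 member groups (red and green) and in the 5 wider lists (grey), with the median of each list as a bar and the median of all named genes as a dotted line. Hvcn1 lies at 1.67 and Sod2 at 1.31; no gene shown passed limma's adjusted p under 0.05.

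The genes most like Sod2 over the 5 arrays, among 9930 named genes above the median level, were Gsn, Xbp1 and Btg1 (Pearson's r of 0.999 for each), with log2 differences of 0.79, 0.30 and 0.42. For Sod1 they were Med21, Mef2a and Man2a2 (r of at least 0.9988), with -0.12, -0.16 and -0.19. These genes were picked as the highest of 9930 correlations over only 5 arrays, so the r values are a description and no test. For scale, the interferon-induced chemokine Cxcl9 differed by 6.02 (SE 0.31), with a limma adjusted p of 0.0270, and the guanylate-binding protein Gbp2 by 3.82 in the same fit.

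Phagocyte oxidase genes are also expressed by neutrophils and monocytes, and in bulk samples fewer cells of a type and less RNA per cell cannot be told apart. Macrophage markers were present on every array: the summed scaled signal of 7 of 7 genes was 14757 to 23941 in tumoricidal arrays, against 14485 to 19722 in control arrays. The summed signal of 8 measured neutrophil markers of 10 was 9853 to 11282 in tumoricidal arrays, against 4560 to 7604 in control arrays. S100a8 (log2 difference 0.999) and S100a9 (0.91), which monocytes also carry, made up most of it, and the groups did not overlap for either. Cxcr2, a neutrophil chemokine receptor, had 252, 209 and 86.7 in tumoricidal replicates 1 to 3, against 65.5 and 55.2 in control replicates 1 and 2 (log2 difference 1.47, SE 0.50), again with no overlap. The log2 difference of Csf3r, the receptor of the granulocyte growth factor, was 0.54 (SE 0.33), with overlapping groups. Those of Mmp8 and Mmp9 were 0.035 and -0.33, and the granule genes Mpo (-0.29) and Elane (-0.35) stayed at or below 24.4 on every array. None of the 8 passed limma's adjusted p under 0.05, and 3 were higher at an unadjusted p under 0.05, beside 1045 of all 17074 named genes. For the 3 measured monocyte markers of 5 the sum was 8355 to 9311 in tumoricidal arrays, against 8781 to 8924 in control arrays. Eosinophil markers (5 of 5 measured) summed to 54.6 to 68.2 in tumoricidal arrays, against 25.1 to 40.7 in control arrays. Siglecf (log2 difference 2.28, SE 0.32, limma adjusted p 0.141) had 38.5, 37.0 and 38.5 in tumoricidal arrays, against 10.5 and 5.8 in control arrays. The differences of Ccr3, Il5ra, Prg2 and Epx were -0.63, -0.48, 0.27 and 0.53, with overlapping groups and some arrays at the floor. The 4 measured natural killer markers of 5 summed to 533 to 934 in tumoricidal arrays, against 110 to 143 in control arrays, the 5 measured T cell markers of 6 to 84.7, 838 and 65.3 in tumoricidal replicates 1 to 3, against 74.6 and 38.8 in control replicates 1 and 2. The high T cell sum was that of tumoricidal replicate 2 alone. This array was the lowest of its group for each of the 9 genes except Cat, and any link was not tested. Without this array the log2 difference was 1.01 for Cybb, 0.97 for Cyba, 0.82 for Ncf1, 0.39 for Ncf4 and 0.30 for Rac2. It was 1.38 for Sod2, 0.52 for Gpx1, -0.019 for Sod1 and -0.037 for Cat. The 7 plasma cell or myeloma markers summed to 3508 to 4539 in tumoricidal arrays, against 5071 to 5768 in control arrays, and Xbp1, which many cells express, had 3098 to 3297 of this in tumoricidal arrays, against 2456 and 2721 in control arrays. Within the list the log2 difference was -2.80 (SE 0.85) for Jchain and -3.24 (SE 0.28) for Pou2af1, with no overlap of the groups and limma adjusted p-values of 0.480 and 0.0528. Tnfrsf17 was below the floor on all 3 tumoricidal arrays, against 24.2 and 37.2 in control arrays. Sdc1 differed by -1.23 (SE 0.61) with overlapping groups, and Irf4 by -0.51 (SE 0.22) without overlap. Prdm1 (0.66, SE 0.37) and Xbp1 (0.30, SE 0.23) went the other way, with every tumoricidal array above both control arrays. The part of other cells in the differences of the oxidase and antioxidant genes was not tested.

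Spike-in control probe sets divided the arrays into tumoricidal replicates 1 and 2 with control replicate 1, and tumoricidal replicate 3 with control replicate 2. The log2 difference of Cybb was 0.85 within the first set and 1.12 within the second, that of Cyba 0.98 and 0.63, that of Ncf1 0.66 and 0.70, and that of Sod2 1.46 and 1.29. Ncf4 had 0.44 and 0.18, Rac2 0.51 and 0.031, Gpx1 0.54 and 0.27, Cat 0.13 and 0.020, and Sod1 -0.030 and -0.049. Each set holds 1 control array, and the second also 1 tumoricidal array, so neither set has a replicate check of the controls.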

How the data were processed

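Total RNA (6 µg, Trizol) of sorted CD11b+ cells was hybridised to 5 Affymetrix arrays, per the labels' protocols. The authors deposited a single table of linear intensity values. Which software made it is not given in the labels or headers used here. Its values show that every array had a mean of 100.0 once 2% were trimmed at each end.

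Here each array was multiplied to a common median (18.0). The 64 control probe sets were dropped, and signals below the 25th percentile of all arrays pooled (4.79) were set to that floor before log2. That left out 3984 probe sets lying at the floor on every array. The other 41053 went into limma's two-sided test without covariates, with Benjamini-Hochberg adjustment. Symbols are those of the platform annotation, and the brightest probe set with a single symbol stands for a gene in medians and ratios. In each wider list the text names the 2 genes with the largest absolute difference whose higher group mean was above the median signal. It also names Cxcl9, Gbp2 and the 3 genes closest in pattern to the members with the largest and smallest t. Marker genes, the unmeasured or dim oxidases and the split of the enzymes were picked after values were seen. The members and lists were chosen with earlier results of these data known. The scripts were tested on simulated data. Versions were limma 3.58.1 under R 4.3.3, and matplotlib 3.10.9 under Python 3.11.15. Depth has no meaning for arrays. Alternatives were other scalings, floors and filters, blocks, a variance trend and leaving out each array.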

Additional observations from a re-analysis of the deposited data

How the results depend on the processing

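No member probe set passed limma's adjusted p under 0.05 in any alternative in which it was tested: 15 for 20 of the 21, and 14 for the dim Rac2 probe set, which the filter at the median removed. Adjusted p for the brightest Sod2 probe set ran from 0.0682 (variance trend with robust fit) to 0.631, and for the brightest Cybb probe set from 0.159 to 0.927. All 3 Cybb, 3 Ncf1 and 4 Sod2 probe sets, and those of Cyba and Gpx1, kept a positive difference throughout: the brightest Sod2 probe set from 0.98 to 1.59 and the brightest Cybb probe set from 0.61 to 1.01. The smallest was 0.019, for a Ncf1 probe set without control replicate 1.

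Among all tested probe sets, 21 passed. This became 71 with log2(signal + 16) and no floor, 193 with only probe sets above the median, 62 with no filter and 202 with the variance trend and robust fit. It became 0 with a floor at the 10th percentile, with the spike-in split as a block, and without any single array (0 to 0), where 3009, 4117 and 2478 to 5218 probe sets had an unadjusted p under 0.05. The replicate number as a block (replicate block, replicates 1 and 2 only, 1 residual degree of freedom before moderation) called 485 and no member. In that fit every tested member probe set had the same SE (0.54), so they ranked by the size of the difference alone. The labels do not say that the numbers pair samples, and deviations of same-numbered arrays correlated with r of 0.023 for number 1 and -0.24 for number 2.

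The median of the oxidase subunits was 0.23 with quantile normalization and, with single arrays left out, lay between 0.28 (control replicate 1 left out) and 0.87 (control replicate 2 left out). That of the antioxidant enzymes was -0.033 with deposited scaling, -0.12 with quantile normalization, -0.025 with scaling to the 90th percentile, which was added after the data were seen, and lay between -0.030 and 0.42 with the same arrays left out. The sign turned with quantile normalization for Ncf4 (-0.090) and Rac2 (-0.096; over single arrays left out from -0.11, without control replicate 1, to 0.58). Cat turned with deposited scaling, quantile normalization and the 90th percentile on both probe sets (-0.22, -0.29 and -0.21; -0.047, -0.069 and -0.038), and the brighter also with the replicate block (-0.12); over single arrays left out they ran from -0.24 to 0.26 and from -0.13 to 0.50. For Sod1, 1451124_at turned with the same 3 scalings (-0.13, -0.19 and -0.12) and the replicate block (-0.0074), and 1435304_at with the spike-in block (0.0060). Over single arrays left out, 1459976_s_at ran from -0.28 to 0.085, 1451124_at from -0.0074 to 0.19 and 1435304_at from -0.11 to 0.072. The cause of these changes was not tested, beyond the scalings' own constant shift. No probe set carried several symbols, so that alternative was not run.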
